A study of Mus musculus with 12 samples.

Results

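The transcripts of neuronal microtubule-associated proteins were examined in the newborn brain of wildtype and KIS-ko mice. The members were named by gene symbol as Mapt, Map2, Map1a, Map1b, Map6, Dcx, Dclk1 and Tubb3, by a rule that uses no measured value. Of these 8 genes, 7 were found among the 17550 genes of the deposited table, 3 of them (Map2, Map1b and Map6) under the older symbols Mtap2, Mtap1b and Mtap6, and Map1a was not analysed here. They are covered by 109 of the 221417 probesets of the main type that carry a symbol, a probeset being the set of short probes that lie in an exon or in a stretch of it.

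Microtubules are the tracks and struts of axons and dendrites, and neurons build them from tubulins that include Tubb3, the beta tubulin isotype used as a marker of young neurons. Proteins such as tau (Mapt), Map2 and Map1b bind along the lattice and stabilize it, tau mostly in axons, Map2 in dendrites and Map1b in growing processes. Doublecortin (Dcx) and its relative Dclk1, whose long form also holds a kinase domain, are required for neuronal migration, and Map6 (STOP) protects microtubules against cold and drugs. Uhmk1 encodes KIS, a protein kinase abundant in the brain whose substrates in vitro include the splicing factor SF1.

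Total RNA of 12 whole brains, each hybridized to its own Affymetrix Mouse Exon 1.0 ST array, was compared to ask what loss of KIS does to transcripts at birth. All animals were newborn females of a C57BL6/N background, untreated, with 6 wildtype (KIS +/+) and 6 KIS-ko (KIS -/-) mice, and each of 6 litters gave 1 brain of either genotype. The deletion is inherited through the germline, so that no cell type or stage is singled out. In a whole brain, fewer cells of a type and less RNA per cell cannot be told apart.

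The value of a probeset on an array is the deposited intensity, called signal below. Probe affinity differs between probesets, so that a higher signal at one probeset than at another, within a gene or between genes, is not read here as a higher transcript level. Instead, 713, the 95th percentile of the mean signals of 5222 control probesets placed in introns, served as the limit above which a probeset counted as measured over background, and the median of these controls was 114. A gene value is the mean over the gene's probesets of log2(signal + 16). Differences are KIS-ko minus wildtype on this log2 scale, from a limma fit across 17279 genes with the litter as a block, and a gene was called at an adjusted p (Benjamini-Hochberg) under 0.05. Given with each is the standard error (SE) or the 95% interval.

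Array medians lay between 478 and 546, and that of the KIS-ko brain was the lower of the pair in 5 of 6 litters. The median difference over all genes was accordingly -0.036. Uhmk1, the deleted gene, had a gene value of 10.97 ± 0.057 among wildtype brains and 8.85 ± 0.15 among KIS-ko brains (SD, n = 6 each), a difference of -2.11 (SE 0.068, adjusted p = 2.9e-07 in limma) that follows the genotype labels with no overlap. All 15 neuronal markers listed for the tissue (Snap25, Stmn2, Elavl3 and others) had a median probeset signal over the control limit. Their median difference was -0.017, and the mean of their gene values ranged from 11.87 to 12.001 in wildtype and from 11.85 to 11.998 in KIS-ko.

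All 7 genes were detected well over background at birth. All 109 probesets passed the filter on variable probesets, and 105 of them lay above the control limit, against 44.6% of all probesets kept. The median probeset signal was 5198 in Mapt, 7722 in Map2, 10870 in Map1b, 2022 in Map6, 8660 in Dcx, 5210 in Dclk1 and 11740 in Tubb3. The 4 dim probesets belonged to Mapt, Map6 and Dclk1 and are described with the profiles.

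No gene of the group differed between genotypes beyond the spread of the litters. None of the 7 was called (0.00579% of all genes were), and none reached an unadjusted p of 0.05 in limma (6.16% of all genes did). The wildtype and KIS-ko ranges overlapped in all 7 genes (0.208% of all genes showed no overlap). None was lower in all 6 litters (1.6% of all genes) or higher in all 6 (0.92%). As deposited, 6 of the 7 were slightly lower in KIS-ko (69.8% of all genes were lower). All 6 turned slightly higher once each array was centred on its median, with differences from 0.026 to 0.051, and Tubb3 was then at 0.073. Centring moves the difference of every gene by the same amount. After it, 293 of the 1097 genes of unadjusted p under 0.05 in limma were lower, in place of 750 of 1065. The median difference of the 7 genes was -0.021, less negative than the -0.036 of all genes.

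**Figure D1:**
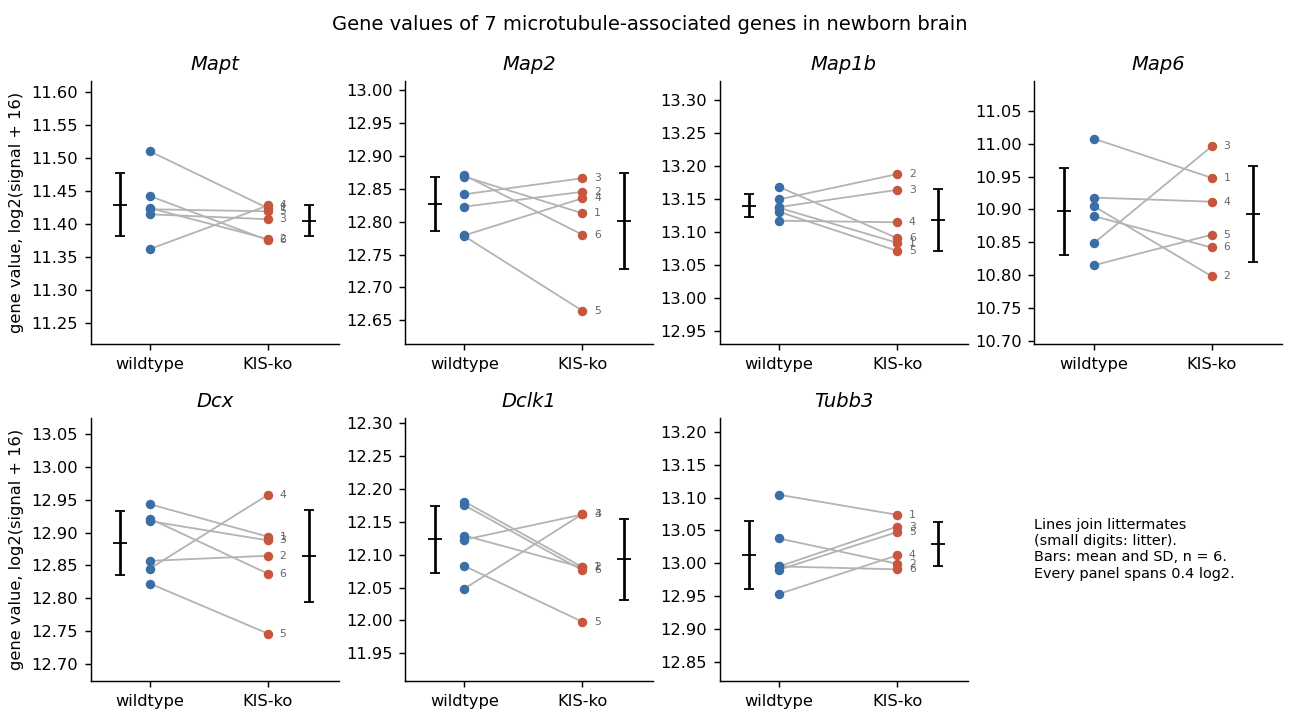
Gene value, log2(signal + 16), of each gene in the 6 wildtype (blue) and 6 KIS-ko (red) brains, with grey lines joining littermates, small digits giving the litter and bars the mean and SD. The lines run up and down within each panel, and the genotypes overlap in all 7 genes, whose values span 0.12 to 0.21 log2 units over the 12 arrays.

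Mapt encodes tau, the axonal microtubule-associated protein that forms tangles in Alzheimer's disease. Its gene value was 11.36 at the lowest, 11.42 at the median and 11.51 at the highest in wildtype, and 11.38, 11.41 and 11.43 in KIS-ko. The KIS-ko brains all fell inside the wildtype range, and the highest of the 12 was the wildtype brain of litter 1. The difference was -0.024 (SE 0.045, 95% interval -0.12 to 0.076, adjusted p = 0.844), or -1.66% with an interval of -8.27% to 5.41%. Mapt was lower in KIS-ko in 5 of 6 litters, litter 4 being the exception.

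Map2 encodes the dendritic counterpart of tau. Wildtype brains had gene values of 12.78 (lowest), 12.83 (median) and 12.87 (highest), and KIS-ko brains 12.66, 12.82 and 12.87. The KIS-ko brain of litter 5 stood below all others, and the other 5 KIS-ko brains lay within the wildtype range. The difference was -0.026 (SE 0.047, interval -0.13 to 0.078, adjusted p = 0.839), lower in KIS-ko in 3 litters and higher in 3. Map2 lies on chromosome 1, as does Uhmk1, 106 Mb away.

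Map1b, an early protein of growing axons, had the narrowest wildtype range of the group. Its gene value was 13.12 at the lowest, 13.14 at the median and 13.17 at the highest in wildtype, and 13.07, 13.10 and 13.19 in KIS-ko. KIS-ko brains lay on both sides of the wildtype range, with an SD of 0.047 against 0.017. The difference of the means was -0.021 (SE 0.045, interval -0.12 to 0.078, adjusted p = 0.860), and 4 of 6 litters were lower in KIS-ko.

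For Map6, which stabilizes microtubules in the cold, the wildtype values were 10.82 (lowest), 10.90 (median) and 11.01 (highest) and the KIS-ko values 10.80, 10.89 and 10.996. The ranges were nearly the same. The difference was -0.0044 (SE 0.050, interval -0.11 to 0.11, adjusted p = 0.976), and its sign turned when litter 1, 2 or 6 was left out (-0.035 to 0.016 over the 6 fits that left out a litter). Map6 had the widest spread of single litters, from -0.11 in litter 2 to 0.15 in litter 3.

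Dcx, the X-linked gene of doublecortin, ranged in wildtype from 12.82 over a median of 12.89 to 12.94, and in KIS-ko from 12.75 over 12.88 to 12.96. The lowest value was again that of the KIS-ko brain of litter 5, and the highest that of the KIS-ko brain of litter 4. The difference was -0.020 (SE 0.047, interval -0.12 to 0.085, adjusted p = 0.881), lower in KIS-ko in 4 of 6 litters.

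Dclk1, the doublecortin-like kinase, had wildtype values of 12.05 (lowest), 12.13 (median) and 12.18 (highest) and KIS-ko values of 11.998, 12.08 and 12.16. Its difference of -0.030 (SE 0.049, interval -0.14 to 0.079, adjusted p = 0.820) had the largest size among the 7 genes as deposited, and 4 of 6 litters were lower in KIS-ko. The KIS-ko brain of litter 5 was once more the lowest. Its array also had the lowest median of the 12, at 478, and after centring the lowest value of Map2, Dcx and Dclk1 was that of the wildtype brain of litter 2.

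Tubb3, the neuronal beta tubulin, was the gene with a positive difference. Its values were 12.95 (lowest), 12.995 (median) and 13.10 (highest) in wildtype and 12.991, 13.03 and 13.07 in KIS-ko, so that the KIS-ko range lay within that of wildtype. The difference was 0.017 (SE 0.044, interval -0.081 to 0.12, adjusted p = 0.890), with 3 litters lower and 3 higher in KIS-ko, and it was 0.073 after centring and -0.042 when the gene value was the median over probesets. Of its 5 probesets, 4 are marked in the table as matching more than 1 place, as can occur among tubulin genes, and the remaining probeset, with a mean signal of 3890, differed by 0.071.

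**Figure D2:**
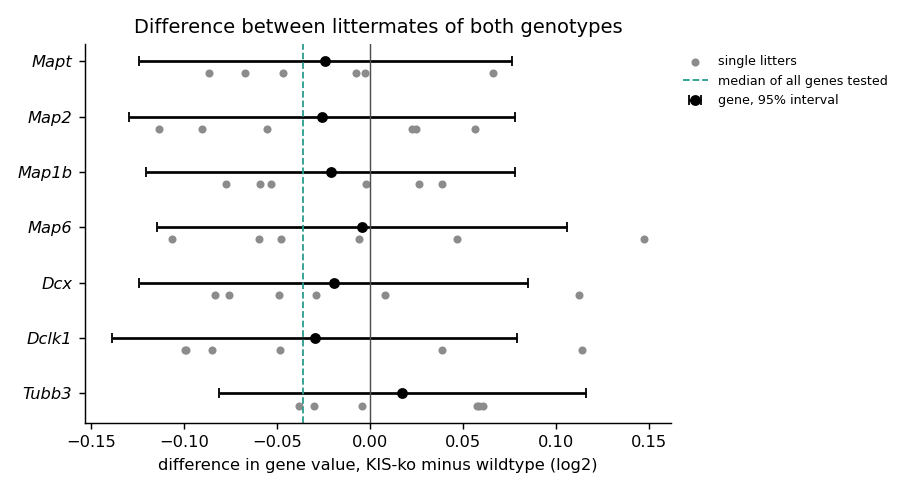
Difference in gene value (KIS-ko minus wildtype, log2) with its 95% interval from the limma fit (black) and the 6 single litters (grey), the dashed line marking the median of all genes tested, -0.036. Every interval includes 0 and the dashed line.

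The intervals of these genes were narrower than that of a typical gene. The comparison is not matched for signal. All 7 had a median probeset signal over the control limit, as did 6373 of the 17279 genes compared. The lower ends of the 7 intervals reached -0.14 and the upper ends 0.12. The median width of the interval was 0.21, against 0.26 over all genes, and the median residual SD was 0.049 against 0.10. Tubb3, Map1b and Mapt stood at the 1.08, 1.30 and 2.31 percentiles of the residual SD over all genes, and Map6 at the highest of the group, 15.6. A p above the threshold does not show that levels were equal, and a difference within these intervals could not be told from 0 with 12 arrays. The intervals are not adjusted for the number of genes tested, so that a larger difference can also go uncalled.

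Within single litters, most of the 7 genes lay on the side that most of all genes took. In litter 1 all 7 genes were lower in the KIS-ko brain (median -0.056, from -0.10 to -0.030), and the same held in litter 6 (median -0.078, from -0.099 to -0.0044). In litter 4, 5 of the 7 were higher, with a median of 0.059, and in litter 3 again 5 were higher, with a median of 0.026. The medians over all genes were -0.046 in litter 1, -0.11 in litter 6, 0.071 in litter 4 and 0.0023 in litter 3. In the same order, 64.7%, 70.4%, 30.3% and 49.0% of all genes were lower in the KIS-ko brain.

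In litter 5, 5 of the 7 were lower (66.1% of all genes were), with a median of -0.059 beside -0.052 over all genes. Map2, Map1b, Dcx and Dclk1 were lower in the KIS-ko brain by 0.113, 0.059, 0.076 and 0.085. Tubb3 and Map6 were higher by 0.057 and 0.046, and Mapt differed by -0.0031. In litter 2, 4 of the 7 were lower (69.1% of all genes were), with a median of -0.038 beside -0.086 over all genes. The differences there ran from -0.11 in Map6 to 0.038 in Map1b. The test for differences between litters (limma F test of the litter terms) called none of the 7 genes and 0.0% of all genes, with unadjusted p from 0.601 to 0.945 in the 7 genes, where 11.3% of all genes were under 0.05. With probesets matching 1 place only, 1 of the 7 genes was under 0.05, as were 1912 of 16324 genes.

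Gene values of the group were positively correlated over the 12 arrays after each array was centred on its median. Pearson's r was positive in all 21 pairs, from 0.23 to 0.90 with a median of 0.50. Of the 6372 other genes above the control limit, between 54.5% (for Map2) and 61.8% (for Map6) correlated positively with a given member, with median r from 0.042 to 0.17. When the 2 arrays farthest from the median of the first gene of a pair were left out, 19 of 21 pairs were positive, with Map6 and Dclk1 at -0.17 and Map6 and Dcx at -0.073. After adjustment over the 21 pairs, 7 passed 0.05 by Pearson's r and 5 by Spearman's rho, in permutation tests with 100000 draws. Each r was also ranked among those of the 6372 other genes with either member. The 7 pairs stood between the 95.2 percentile (Map6 among the genes of Tubb3) and the 99.9. The other pairs reached down to 60.8 (Dcx among the genes of Mapt). These correlations were chosen after the values had been seen. The arrays share litters in pairs and are thus not fully independent.

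The closest pair was Mapt and Tubb3, with r = 0.90 (permutation p = 7e-05, adjusted 0.0015) and rho = 0.85 (permutation p = 0.00096, adjusted 0.015). It was 0.90 within wildtype and 0.94 within KIS-ko brains, and 0.90 without the 2 arrays farthest from the median of Mapt. On the deposited scale without centring it was 0.72. Among the 6372 other genes above the control limit, Mapt stood at the 99.9 percentile of r with Tubb3. Of the 5 probesets in the gene value of Tubb3, 4 are marked as matching more than 1 place. The correlation was not computed from the remaining probeset alone.

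Map2 correlated with Dclk1 at r = 0.85 (permutation p = 0.0007, adjusted 0.0073, rho = 0.78), and with Dcx at 0.82 (permutation p = 0.0012, adjusted 0.0084, rho = 0.83). Its r with Map1b was 0.79 (permutation p = 0.0026, adjusted 0.014), but rho was 0.65 with an adjusted p of 0.073 and r fell to 0.59 without the 2 arrays farthest from the median of Map2. Dcx and Dclk1 (r = 0.71), Map1b and Dclk1 (r = 0.72) and Map6 and Tubb3 (r = 0.70) each had an adjusted permutation p of 0.035. By rho the adjusted p was 0.038 for Dcx and Dclk1 and 0.049 for Map6 and Tubb3, but 0.073 for Map1b and Dclk1.

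The remaining 14 pairs did not pass the adjusted threshold by Pearson's r. They ran from 0.23 for Map6 with Dcx to 0.64 for Mapt with Map1b, with Map1b and Tubb3 at 0.60, Map1b and Dcx at 0.54 and Mapt and Map2 at 0.33. The last was 0.79 without the 2 arrays farthest from the median of Mapt, and 0.73 within wildtype against 0.042 within KIS-ko brains. Within KIS-ko brains r was negative for Mapt with Dcx (-0.34), Dcx with Tubb3 (-0.31) and Map6 with Dcx (-0.29). Within wildtype it was negative for Map6 with Dclk1 (-0.036). Whether correlations differ between pairs or genotypes was not tested. Without centring 19 of 21 pairs were positive, the exceptions being Map1b with Tubb3 (-0.13) and Map1b with Map6 (-0.030).

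**Figure D3:**
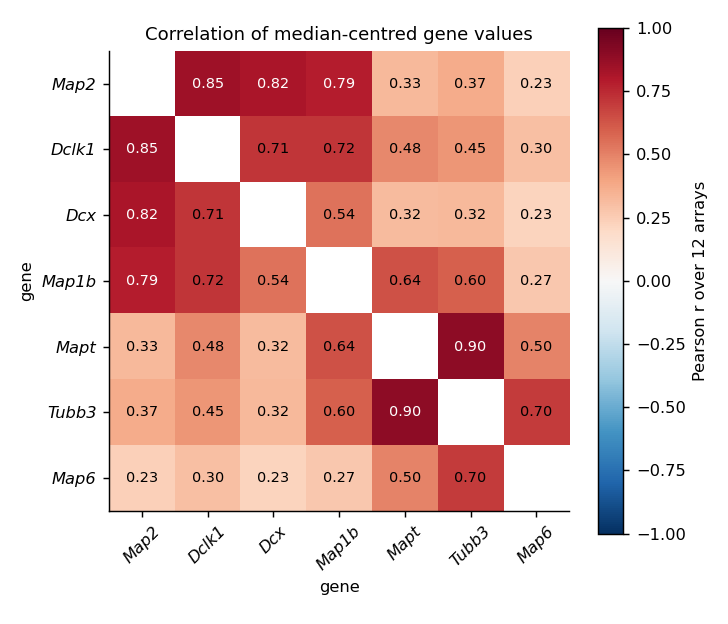
Pearson's r over the 12 arrays between the median-centred gene values of each pair of genes, printed in the cells. All values are positive, from 0.23 for Map6 with Dcx to 0.90 for Mapt with Tubb3.

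Sequences before and around the transcription starts are shown because some of the genes' values were correlated over the arrays. RefSeq promoter windows of 300 bases, 250 before the start and 50 after it, were at hand for 5 of the 7 genes (7 windows, build GRCm38.p6), and 1 window of each gene is printed. Capitals mark GGGCGG, the GC box bound by Sp1 family factors, and TATAAN, the core of a TATA box, on either strand, with overlapping matches run together.
Map2 (chr1:66175079-66175378, plus strand): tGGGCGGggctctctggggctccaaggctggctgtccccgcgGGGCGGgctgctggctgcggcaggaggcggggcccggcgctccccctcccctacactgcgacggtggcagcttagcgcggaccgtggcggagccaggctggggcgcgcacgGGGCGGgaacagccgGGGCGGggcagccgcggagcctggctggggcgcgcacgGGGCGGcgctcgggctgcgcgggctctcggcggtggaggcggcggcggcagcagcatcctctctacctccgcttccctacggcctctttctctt
Map1b (chr13:99516553-99516852, minus strand): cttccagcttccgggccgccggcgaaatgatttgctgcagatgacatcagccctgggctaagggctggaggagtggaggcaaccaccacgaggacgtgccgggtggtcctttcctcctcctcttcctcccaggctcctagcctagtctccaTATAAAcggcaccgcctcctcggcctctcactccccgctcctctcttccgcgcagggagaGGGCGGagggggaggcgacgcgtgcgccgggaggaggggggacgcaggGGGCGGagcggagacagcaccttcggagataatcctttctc
Dcx (chrX:143933075-143933374, minus strand): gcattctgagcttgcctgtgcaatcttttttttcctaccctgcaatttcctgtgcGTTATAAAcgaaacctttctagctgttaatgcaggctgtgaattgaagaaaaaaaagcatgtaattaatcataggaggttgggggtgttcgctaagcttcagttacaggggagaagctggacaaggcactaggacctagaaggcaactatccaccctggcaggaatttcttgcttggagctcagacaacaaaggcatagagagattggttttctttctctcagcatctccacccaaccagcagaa
Dclk1 (chr3:55242114-55242413, plus strand): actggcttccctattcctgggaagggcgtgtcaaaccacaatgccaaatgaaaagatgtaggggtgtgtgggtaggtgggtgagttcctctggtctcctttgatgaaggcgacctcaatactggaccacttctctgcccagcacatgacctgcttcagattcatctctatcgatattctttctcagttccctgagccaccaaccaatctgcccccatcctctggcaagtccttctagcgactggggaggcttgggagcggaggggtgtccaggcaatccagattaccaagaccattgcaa
Tubb3 (chr8:123411303-123411602, plus strand): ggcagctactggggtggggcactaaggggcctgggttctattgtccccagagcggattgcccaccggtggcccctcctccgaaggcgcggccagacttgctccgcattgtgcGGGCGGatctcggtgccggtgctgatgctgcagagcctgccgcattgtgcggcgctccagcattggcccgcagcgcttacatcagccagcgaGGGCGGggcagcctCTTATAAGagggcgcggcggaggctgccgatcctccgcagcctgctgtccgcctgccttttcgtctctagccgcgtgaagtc

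Map2 has the window richest in G and C, at 77.7%, with 5 matches of GGGCGG and no TATAAN. Map1b (65.7% GC) and Tubb3 (67.3% GC) hold 2 matches of GGGCGG each and also TATAAN. The 2 windows of Dcx overlap, have 44.7% and 43.0% GC and hold TATAAN but no GGGCGG, and the 2 windows of Dclk1 (52.7% and 50.3% GC) hold neither. Of all 32851 promoter windows of this length, 35.7% hold GGGCGG and 24.8% hold TATAAN, and the median GC content is 52.7%. These matches describe letters in a window and not binding.

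Among the 6372 other genes above the control limit, those most like each member in their centred values were, as a description over 12 arrays, Gdf7 and Bok for Mapt (r = 0.94 each), Huwe1 (0.92) and Xpr1 (0.90) for Map2, and the tubulin gene Tubb5 (0.91) and the actin gene Actb (0.90) for Map1b. For Map6 they were Hk1 and Agap1 (0.92 each), for Dcx Ncor1 and Nfib (0.93 each), for Dclk1 Rab10 (0.93) and Bnip3l (0.91), and for Tubb3 Evl (0.94) and Coro2b (0.92). The 99th percentile of r over these genes lay between 0.73 in Dcx and 0.84 in Mapt.

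The exon profile of Mapt had a gap near its 5′ end. Tau transcripts of the fetal brain are known to lack cassette exons that adult transcripts include, namely a pair in the N-terminal part and one of the microtubule-binding repeats. The table does not number exons and names no genome build, so probesets are given by their order from 5′ to 3′ and by the table's own positions, and were not matched to those exons. The 12 probesets of Mapt lie in 12 exon clusters between 104143699 and 104190491 on chromosome 11.

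In Mapt, the second probeset (104148475 to 104148521) had signals of 111 (lowest), 119 (median) and 135 (highest) in wildtype and 91.8, 113 and 134 in KIS-ko. Its mean of 117 stood at the 50.8 percentile of the intron controls. The third probeset (104151224 to 104151272) had signals of 176, 218 and 258 in wildtype and 218, 244 and 304 in KIS-ko, at the 75.2 percentile. Neither exceeded the control limit on any of the 12 arrays, in either genotype.

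Each of the other 10 probesets of Mapt was above the limit, with mean signals between 2123 and 6751. Among them the eighth (104179487 to 104179560) had signals of 1811, 2293 and 2493 in wildtype and 1845, 1993 and 2273 in KIS-ko, above the limit on all 12 arrays.

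**Figure D4:**
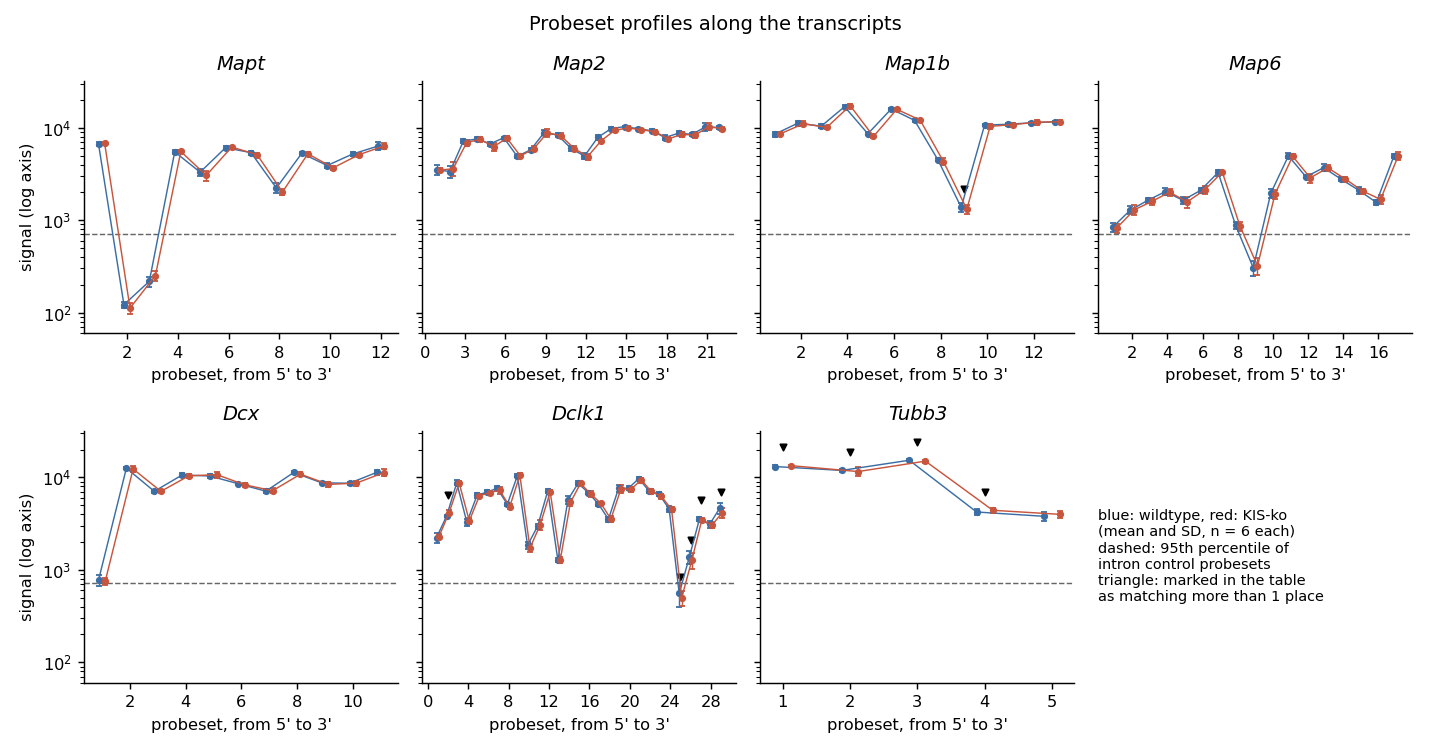
Signal of each probeset (log axis) in order from 5′ to 3′, with the mean and SD of the 6 wildtype (blue) and 6 KIS-ko (red) brains, the control limit of 713 (dashed) and triangles over probesets marked as matching more than 1 place. The profiles of both genotypes lie close to each other, and Mapt drops below the limit at the second and the third probeset.

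All 22 probesets of Map2 (chromosome 1, 66221996 to 66488472) were above the limit, with mean signals from 3479 to 10251. The table ties the ninth to the thirteenth of them to a separate mRNA record. One of these, the ninth, spans 1290 bases. Large Map2 proteins differ from the short juvenile form by a long internal stretch. The 5 probesets had mean signals between 4905 and 8831, all above the limit, and a median difference of -0.016.

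Map1b (chromosome 13, 100194893 to 100286425, minus strand) was measured over the limit at all 13 probesets, from 1345 at a probeset marked as matching more than 1 place to 17122. Dcx (chromosome X, 140290854 to 140367773, minus strand) had 10 probesets between 7073 and 12469. Its most 5′ probeset, tied to a separate mRNA record, had a mean of 762, at the 95.5 percentile of the controls and above the limit on 8 of 12 arrays.

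Map6 (chromosome 7, 106415957 to 106468400) was above the limit at 16 of 17 probesets, with the ninth at 313 as the exception. The 3 at the 3′ end, tied to another mRNA record, had mean signals of 2081, 1615 and 4950. In Dclk1 (chromosome 3, 55046521 to 55340588), 28 of 29 probesets were above the limit. The exception, the 25th at 527, is 28 bases long and marked as matching more than 1 place. The 10th and 11th, tied to a separate record that lies within the gene, had means of 1785 and 3014. Tubb3 (chromosome 8, 125935509 to 125945677) ranged from 3890 to 15172.

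No probeset of these genes was called between genotypes. Of the 109 probesets 76 were lower in KIS-ko (66.2% of all probesets were), and 0 passed the adjusted threshold in limma (0.00487% of all were). An unadjusted p under 0.05 was found in 1 (6.63% of all, or 13621 of 205469). This count was 6 without litter 4 (33090 of all probesets), 7 with trend and robust moderation (14336) and 3 after centring (12910). Differences of single probesets ran from -0.16 to 0.19. The probeset with the unadjusted p under 0.05 was the third of Mapt, which is dim, with a difference of 0.19 (unadjusted p = 0.049, adjusted p = 0.752 in limma).

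The splicing index of a probeset is its log2 value minus the mean of its gene on the same array, so that a change in it marks an exon that moves apart from its gene. Over the 109 probesets, its difference ran from -0.13 to 0.22, with none called (0.000985% of all were) and 1 at an unadjusted p under 0.05 (6.11% of all), again the third probeset of Mapt (0.22, interval 0.024 to 0.41, adjusted p = 0.806). The count was 6 without litter 4, and over all probesets it was then 24674 of 202944 in place of 12395. The signals of the third probeset lie below the control limit in both genotypes.

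**Figure D5:**
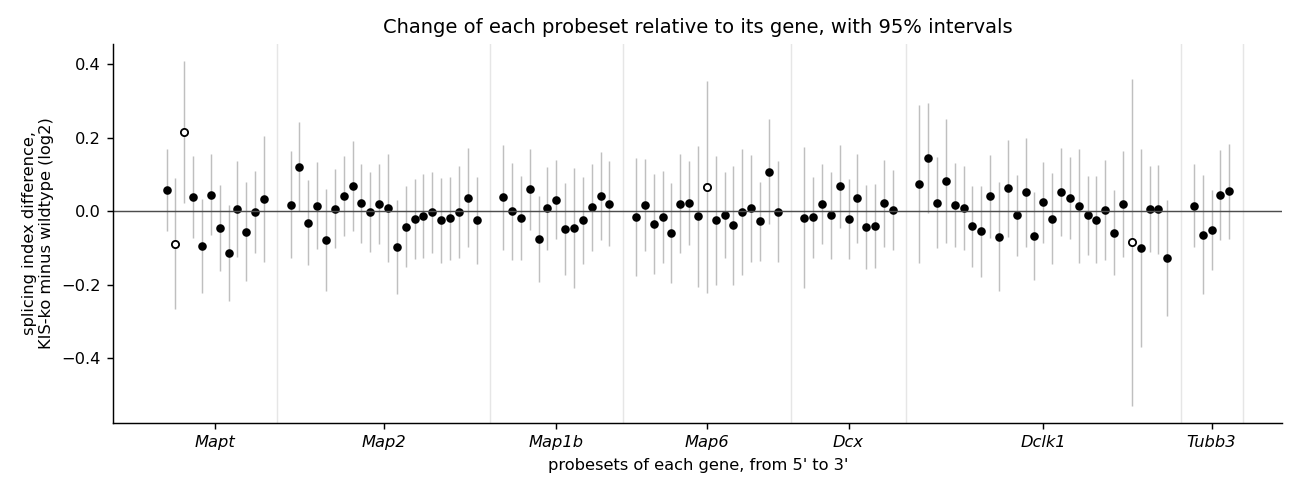
Splicing index difference (KIS-ko minus wildtype, log2) of each of the 109 probesets with its 95% interval, genes side by side and probesets from 5′ to 3′, open circles marking the 4 probesets below the control limit. Points scatter around 0 between -0.13 and 0.22, and 1 interval, that of the third point of Mapt, an open circle, excludes 0.

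Among probesets above the limit, the largest splicing index difference of Mapt was that of the eighth, -0.11 (SE 0.057, interval -0.24 to 0.016, adjusted p = 0.834), lower in 5 of 6 litters. In Map2 it was the second probeset, 0.12 (SE 0.053, interval -0.00014 to 0.24, adjusted p = 0.817), higher in all 6 litters, as were 1.61% of all probesets. Dclk1 had 0.14 at its second probeset (SE 0.066, adjusted p = 0.823), which is marked as matching more than 1 place. The others were -0.075 in Map1b (the fifth, adjusted p = 0.872), 0.11 in Map6 (16th, 0.854), 0.068 in Dcx (the fifth, higher in all 6 litters, 0.879) and -0.064 in Tubb3 (the second, 0.924). Of the 109 probesets, 2 had a higher splicing index in all 6 litters, and 1, the third of Tubb3 (-0.050), had a lower one, as did 1.57% of all probesets.

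As a further description of profile shape, chosen after the values had been seen, the mean over the probesets on the 3′ side of a gene's middle was set against that over the 5′ side. This 3′ minus 5′ value differed between genotypes (KIS-ko minus wildtype) by -0.036 ± 0.021 (SD over 6 litters) in Map2, negative in all 6 litters, as in 2.02% of the 13805 genes with at least 5 probesets. The difference was -0.059 ± 0.11 in Mapt, -0.039 ± 0.11 in Dclk1, -0.013 ± 0.066 in Dcx, -0.0093 ± 0.057 in Map1b, 0.011 ± 0.083 in Map6 and 0.073 ± 0.14 in Tubb3, with SDs larger than the means in all of these 6 genes.

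The other genes of the microtubule system gave no call either. None of the 11 alpha and beta tubulins, 17 other microtubule-associated proteins (of 23 listed), 21 motors and their regulators, 23 tubulin modifying, severing and folding proteins (of 26) and 18 kinases and phosphatases of these proteins (of 19) was called in limma, against 0.00579% of all genes. At an unadjusted p under 0.05 in limma there were 2 lower genes and none higher, both in the modifying, severing and folding list. Of all 17279 genes, 6.16% were under it, 750 lower and 315 higher. The median differences of the 5 lists were, in the same order, -0.012, -0.050, -0.031, -0.047 and -0.032, beside -0.036 over all genes.

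The 2 were Tbcc, a cofactor of tubulin folding, and Katna1, the severing subunit of katanin. Tbcc, with 2 probesets, had a gene value of 9.09 ± 0.12 in wildtype and 8.86 ± 0.065 in KIS-ko (SD, n = 6 each), a difference of -0.23 (SE 0.058, adjusted p = 0.685 in limma), lower in 5 of 6 litters. Katna1 had 8.68 ± 0.067 and 8.55 ± 0.10 (SD, n = 6 each), a difference of -0.13 (SE 0.047, adjusted p = 0.685 in limma), lower in all 6 litters. Both had a median probeset signal under the control limit (517 and 302).

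In the other lists the genes of lowest unadjusted p were Tuba4a (difference -0.13, adjusted p = 0.685) and Tubb6 (0.071, adjusted p = 0.719) among tubulins, and Tppp (-0.14) and Map7 (-0.091), both of adjusted p = 0.685, among microtubule-associated proteins. Among motors and their regulators they were the dynein regulator Ndel1 (-0.083, adjusted p = 0.686) and the dynein light intermediate chain Dync1li1 (-0.074, adjusted p = 0.689). Among kinases they were Mapk9, which encodes JNK2 (-0.088, adjusted p = 0.685), and Mark3 (-0.077, adjusted p = 0.686). With 1 litter left out the difference of Tubb6 was 0.019 (litter 4) to 0.11 (litter 2), that of Tppp -0.20 (litter 5) to -0.078 (litter 6), and those of Tuba4a, Ndel1, Dync1li1, Mapk9 and Mark3 reached -0.086, -0.046, -0.048, -0.062 and -0.046 without litter 6. Tubb6, Tppp and Map7 had median probeset signals under the control limit (604, 482 and 206). The sign of Tubb6 turned with a stricter filter, without dim probesets and with the median over probesets, and that of Tppp turned without dim probesets.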

How the data were processed

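The authors prepared total RNA from 12 newborn brains and used the Affymetrix Expression Console to process the Exon 1.0 ST arrays, with quantile normalization of exon-level data and PLIER as the summary of each probeset. The deposited value of each probeset and array is this intensity on a linear scale, already normalized. A genome build for the positions listed is not given in the sources used here. Genes were matched by symbol, by older symbols or by transcript record through the RefSeq table of GRCm38.p6, and promoter windows come from RefSeq on that build. Map1a matched no row and is not analysed here.

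Main probesets with a symbol were used. Those with a relative standard deviation (SD over mean) above 0.4 in wildtype or KIS-ko brains were dropped, following the authors' methods. This step removed 7.20% and left 205469 probesets of 17279 genes. Gene values, single probesets and, in genes with at least 3 probesets, splicing indexes were fitted in limma 3.58.1 (R 4.3.3) with genotype and litter, moderated variances and Benjamini-Hochberg adjustment over all features at 0.05. The code was tested on simulated data. Correlations and plots used Python 3.11.15, numpy 2.4.6, pandas 2.3.3 and matplotlib 3.10.9.

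The labels give each pair 1 litter, and deviations of littermates from their genotype means correlated at -0.093 to 0.33 (mean of other pairs -0.015). The number of arrays and the signal over background limit the precision. Each array is 1 animal.

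The genes named are the 7 members, in each of the 5 lists of other microtubule genes the 2 of lowest unadjusted p and any called, the 2 most correlated genes of each member, the called probesets and the probeset of largest splicing index difference above the limit in each member, and Uhmk1. Marker genes are named as examples of their lists, apart from this rule. The rule for the members takes gene symbols alone, but members, lists and tests were chosen with earlier results of these data known. Alternatives were no litter block, pseudocounts of 1 and 64, no filter or one at 0.2, no dim probesets, centred or again quantile-normalized arrays, the median over probesets, trend and robust moderation, probesets matching 1 place, each litter left out, the methods' weighted fold change and, chosen after seeing the data, correlations without centring.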

Additional observations from a re-analysis of the deposited data

How the results depend on the processing

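None of the 7 genes or their 109 probesets was called in any limma test under any alternative, and all differences of the genes lay between -0.059 and 0.073. Centring the arrays on their medians turned Mapt to 0.031, Map2 to 0.030, Map1b to 0.034, Map6 to 0.051, Dcx to 0.036 and Dclk1 to 0.026, and quantile normalization turned Mapt to 0.0033, Map2 to 0.0038, Map1b to 0.0043, Map6 to 0.028 and Dcx to 0.014. These scalings take out the lower median of most KIS-ko arrays. Map6 was also 0.0031 by the methods' weighted fold change, and -0.035 to 0.016 with 1 litter left out. Tubb3 was -0.042 by the median over probesets. Tubb6 was -0.0097 with the filter at 0.2, -0.0085 without dim probesets and -0.012 by the median over probesets, and Tppp was 0.012 without dim probesets. With 1 litter left out, the differences were -0.042 to -0.012 in Mapt, -0.043 to -0.0085 in Map2, -0.033 to -0.010 in Map1b, -0.046 to -0.0069 in Dcx, -0.059 to -0.016 in Dclk1 and 0.0085 to 0.028 in Tubb3. Over all features, the fit without the litter block called 1 gene as with it, but 26 probesets in place of 10 and 19 splicing indexes in place of 2. The single called gene became 2 with a pseudocount of 64, without the filter or with trend and robust moderation, 5 with the filter at 0.2 or without dim probesets, and 1 to 2 with a litter left out. The 10 called probesets became 23 with a pseudocount of 64, 19 with the filter at 0.2, 30 without dim probesets, 16 after centring, 91 with trend and robust moderation and 9 to 12 with a litter left out. The 2 called splicing indexes became 10, 5, 18 and 7 with the pseudocount of 64, the filter at 0.2, no dim probesets and trend and robust moderation, 0 with probesets matching 1 place (10364 at an unadjusted p under 0.05 in limma), and 2 to 3 with a litter left out. The litter test called 29 genes with a pseudocount of 64, 281 without dim probesets and 168 with trend and robust moderation, in place of 0. Without litter 4, 3913 genes had an unadjusted p under 0.05 in limma in place of 1065. So did 33090 of all probesets in place of 13621, and 24674 of all splicing indexes in place of 12395. Of the 109 probesets of the 7 genes, 6 did, and 6 of their splicing indexes, in place of 1 each. Over the alternatives other than a left-out litter, these counts were 0 to 7 probesets (7 with trend and robust moderation) and 0 to 3 splicing indexes. The causes of these shifts in counts were not tested. The pairs of genes past the threshold were 5 without centring in place of 7. Probesets below the control limit, such as the second and the third of Mapt, give no more than a bound on the signal.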

Other observations

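No marker of another cell type was called in the same brains (limma). Of the astrocyte list (Gfap, Aqp4, Slc1a3, Aldh1l1, Aldoc and Gjb6) all 6 were lower in KIS-ko, with a median difference of -0.11 beside -0.036 over all genes. The mean of their gene values ranged from 10.20 to 10.38 in wildtype and from 10.02 to 10.26 in KIS-ko. Gfap, the intermediate filament of astrocytes, had a gene value of 8.85 ± 0.11 in wildtype and 8.58 ± 0.21 in KIS-ko (SD, n = 6 each), a difference of -0.27 (SE 0.081, adjusted p = 0.685 in limma), lower in 5 of 6 litters. Its median probeset signal of 450 lay under the control limit of 713, and it is named because of its value. It was the only gene of the 9 marker lists with an unadjusted p under 0.05, and 6.16% of all genes were under it. The median differences of the other lists were -0.017 in neurons, -0.071 in progenitors, -0.050 in the oligodendrocyte lineage, -0.023 in microglia, -0.038 in endothelium, 0.024 in erythroid cells, -0.0019 in choroid plexus and -0.057 in meninges. The part of cell composition in the values of the microtubule genes was not tested.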
